A study of Homo sapiens with 12 samples.

Results

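The RNA of 6 cadherin genes, CDH2, CDH4, CDH6, CDH10, CDH11 and CDH13, was followed in human fibroblasts with and without LEO1, in rich and in poor serum. The 6 genes were chosen by name from the 60671 genes of the count table, and 3 of them, CDH2, CDH11 and CDH13, were among the 13236 genes with enough counts to be tested. BJ-5ta is a line of human foreskin fibroblasts immortalized with telomerase. The 4 groups were wild-type (WT) cells in 10% serum, WT cells kept for 10 days in 0.1% serum, ΔLEO1 cells in 10% serum and ΔLEO1 cells kept for 10 days in 0.1% serum, with 3 libraries of poly(A) RNA in each. LEO1 is a subunit of the PAF1 complex, which travels with RNA polymerase II, and the comparisons ask what its loss and serum deprivation do to RNA levels. The ΔLEO1 cells are 1 clone, made with 2 CRISPR guides against exons 1 and 2, and variation from clone to clone is not part of the errors given here. Whether the 3 libraries of a group came from separate cultures is not given in the sources used here, and p-values then measure the spread between these libraries, which may be technical.

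Cadherins are calcium-dependent adhesion proteins that hold neighbouring cells together. Classical cadherins bind the same cadherin on the next cell with their outer domains and bind catenins with their tail, and the catenins join them to actin. Type I and type II classical cadherins differ in the outermost domain that swaps between cells, and fibroblasts are known for N-cadherin (CDH2) and cadherin-11 (CDH11) in place of the E-cadherin of epithelia. CDH4 (R-cadherin, first described in the retina) is the other type I gene of the 6, and CDH6 (K-cadherin, of kidney) and CDH10 (a cadherin of brain) are type II genes like CDH11. CDH13 (T-cadherin) lacks the tail that binds catenins and is held to the membrane by a lipid anchor, so it is neither type I nor type II.

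The libraries held 26240632 to 45315560 gene counts, and ERCC transcripts, synthetic RNAs added to each sample, made up 0.625% to 3.24% of all counts. LEO1 had 682 to 1001 counts in the WT libraries and 23 to 55 in the ΔLEO1 libraries. All 10 fibroblast markers examined, among them COL1A1, PDGFRB and VIM, were well above the filter in all 4 groups, and MYOD1, MYOG, SOX10 and ESRP1, which mark muscle, Schwann and epithelial cells, had no count in any library. The highest-numbered library of each group, 3, 6, 9 and 12, stood apart. The chi-square per gene was 66.2 to 144 when it was paired with another library of its group and 3.04 to 12.1 between the other libraries. In ΔLEO1 cells in 0.1% serum the ERCC share differed 2.97-fold between libraries. Results are therefore given with and without these 4 libraries where a call depends on them. An ERCC-scaled count is the count per 1000000 effective ERCC counts and reads as RNA relative to the added RNA. CPM is the count per 1000000 gene counts and reads as RNA relative to the other genes. In bulk RNA, fewer cells and less RNA per cell cannot be told apart on the ERCC scale.

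CDH2 (ENSG00000170558) lies on the minus strand of chromosome 18 at chr18:27950966-28177446 of GRCh38. The RefSeq promoter table (GRCh38.p14) held 3 of the 6 genes, CDH2, CDH4 and CDH10. The CDH2 promoter at chr18:28177081-28177380 on the minus strand is shown because CDH2 is the member whose RNA changed with serum in both genotypes, and the promoters of CDH10 (chr5:24644929-24645228, minus strand) and of its neighbour CDH9 (chr5:27038537-27038836, minus strand) because counts of these genes were seen in ΔLEO1 libraries and in no WT library. Each runs 5′ to 3′ from 250 bases before to 50 bases after the start site, with each CpG in capitals.
CDH2 promoter: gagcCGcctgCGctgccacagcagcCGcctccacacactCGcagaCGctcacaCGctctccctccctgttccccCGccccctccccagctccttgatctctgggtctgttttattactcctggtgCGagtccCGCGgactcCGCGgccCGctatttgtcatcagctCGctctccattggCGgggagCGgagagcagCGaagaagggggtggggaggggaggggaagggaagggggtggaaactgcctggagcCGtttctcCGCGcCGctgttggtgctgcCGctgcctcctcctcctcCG
CDH10 promoter: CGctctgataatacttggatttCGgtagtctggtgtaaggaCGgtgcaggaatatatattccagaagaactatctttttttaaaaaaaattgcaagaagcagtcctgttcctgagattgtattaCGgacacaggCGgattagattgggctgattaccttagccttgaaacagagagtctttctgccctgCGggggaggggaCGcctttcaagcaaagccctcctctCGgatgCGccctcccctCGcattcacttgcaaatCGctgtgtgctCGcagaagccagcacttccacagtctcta
CDH9 promoter: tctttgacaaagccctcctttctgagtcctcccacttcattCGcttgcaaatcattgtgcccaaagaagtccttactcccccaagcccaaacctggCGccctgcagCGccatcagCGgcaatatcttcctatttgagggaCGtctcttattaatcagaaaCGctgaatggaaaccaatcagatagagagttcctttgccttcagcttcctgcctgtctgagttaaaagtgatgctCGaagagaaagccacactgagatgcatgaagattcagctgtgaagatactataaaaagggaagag
The CDH2 promoter shown had 23 CpGs and a GC content of 67.0%, against medians of 14 and 58.7% over 35116 promoters of the same length. A further CDH2 start in the table (chr18:28036592-28036891, minus strand), 140805 bases from the start of the gene, had 4 CpGs, a GC content of 40.7% and 1 TATAAA. The CDH10 window had 12 CpGs and the CDH9 window 7. The CDH9 start in RefSeq lies 82564 bases from the start of the gene in GENCODE, while those of CDH10 and of the CDH2 promoter shown lie 0 and 316 bases from it. Motifs were searched on both strands. The core of an SP1 site, GGGCGG, occurred 1 time in the CDH2 window and in 44.95% of all promoters. The TATA box, searched as TATAAA, occurred 1 time in the CDH9 window and in 11.5% of all promoters. An E-box of the kind bound by SNAI proteins, CACCTG, was present in 20.6% of all promoters and its letters were in none of these 3 windows.

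CDH2 RNA was high in 10% serum and fell in 0.1% serum in both genotypes. In WT cells its ERCC-scaled count was 67536, 52945 and 47721 with 10% serum, and 10765, 13235 and 6875 with 0.1% serum. All 3 starved libraries lay below all 3 fed ones, as did those of 53.4% of tested genes (1.16% lay above without overlap). The mean dropped from 56067 ± 10270 to 10292 ± 3207 (SD, n = 3), which was 5.45-fold (log2 fold change −2.45, SE 0.44, adjusted p = 7.42e-06 in edgeR's likelihood ratio test with Benjamini-Hochberg adjustment over 13236 genes). Fed ΔLEO1 libraries had 49888, 35465 and 43022, and starved ones 4663, 3003 and 11590, again with no overlap, which was so for 50.9% of tested genes (0.846% in the other direction). This fall was 6.67-fold, from 42791 ± 7214 to 6418 ± 4555 (log2 fold change −2.74, SE 0.44, adjusted p = 7.04e-07). The tested genes had a median of −0.97 in WT and −1.05 in ΔLEO1 cells, so CDH2 fell by more than the typical gene. Relative to the other genes, with TMM factors computed on the genes, the change was −1.53 (adjusted p = 1.69e-15) in WT and −1.77 (adjusted p = 5.00e-20) in ΔLEO1 cells. CDH2 was called in all 12 fits that left out 1 library, with log2 fold changes of −2.67 to −2.22 in WT and −3.48 to −2.40 in ΔLEO1 cells.

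**Figure D1:**
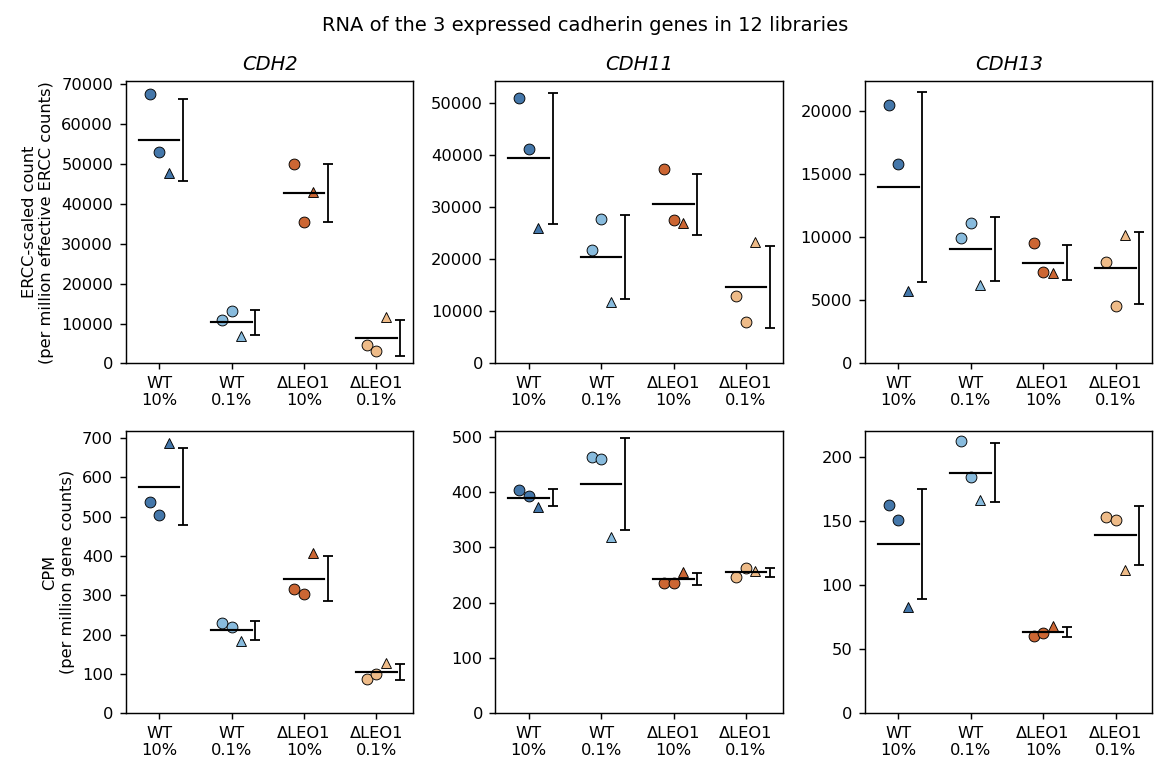
ERCC-scaled counts (upper row) and CPM (lower row) of CDH2, CDH11 and CDH13 in WT and ΔLEO1 cells in 10% and 0.1% serum. Each symbol is a library, triangles are the highest-numbered library of a group, the line is the mean and the bar at its side 1 SD (n = 3). CDH2 sits lower in 0.1% serum in both rows, and the 3 ΔLEO1 libraries sit below the 3 WT libraries of the same serum in all lower panels but overlap with them in all upper panels.

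CDH11 (ENSG00000140937, chr16:64943753-65126112, minus strand), the mesenchymal cadherin of fibroblasts and osteoblasts, moved with the typical gene. Its ERCC-scaled count in fed WT libraries was 50907, 41238 and 25957, and in starved ones 21703, 27748 and 11857. These ranges overlapped, and the log2 fold change of −0.95 (SE 0.44) did not pass the test (adjusted p = 0.0713, likelihood ratio test in edgeR). Fed ΔLEO1 libraries had 37324, 27490 and 26868, and starved ones 12985, 7852 and 23337. All starved libraries lay below the fed ones, and CDH11 fell 2.08-fold (log2 fold change −1.05, SE 0.44, adjusted p = 0.0426 in edgeR). The CPM was nearly the same in both sera, 390 ± 15.2 and 414 ± 83.0 in WT cells and 242 ± 10.9 and 255 ± 8.01 in ΔLEO1 cells (SD, n = 3). With TMM on the genes the log2 fold change was −0.00077 (SE 0.14) in WT and 0.01 (SE 0.14) in ΔLEO1 cells. The call in ΔLEO1 cells is weak, since it was lost in 7 of the 12 fits without 1 library (those without library 2, 4, 5, 6, 7, 10 or 11) and in the quasi-likelihood test (adjusted p = 0.0568). In WT cells CDH11 was called in the fits without library 3, 11 or 12 and in that without libraries 3, 6, 9 and 12 together (log2 fold change −0.90, adjusted p = 0.0230).

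CDH13 (ENSG00000140945, chr16:82626803-83800640, plus strand), a receptor for adiponectin and low-density lipoprotein, did not pass the test in either genotype on the ERCC scale. Its ERCC-scaled count in fed WT libraries was 20463, 15839 and 5735, and in starved ones 9938, 11101 and 6200, with library 3 the lowest of all 6. The groups overlapped, with a log2 fold change of −0.63 (SE 0.45) and an adjusted p of 0.212 in edgeR. Fed ΔLEO1 libraries had 9579, 7275 and 7147, and starved ones 8075, 4518 and 10159, which overlapped too (log2 fold change −0.08, SE 0.45, adjusted p = 0.877 in edgeR). The share of CDH13 among all genes went the other way. Its CPM was 132 ± 43.1 in 10% and 187.5 ± 23.2 in 0.1% serum in WT cells, and 63.6 ± 3.75 and 139 ± 23.2 in ΔLEO1 cells (SD, n = 3). In CPM the starved libraries lay above the fed ones without overlap in both genotypes, as did those of 31.5% and 27.3% of tested genes. With TMM on the genes CDH13 was higher in starved ΔLEO1 cells (log2 fold change 1.07, adjusted p = 5.78e-05), while the value in WT cells was 0.42 (adjusted p = 0.148). Without libraries 3, 6, 9 and 12 the ERCC-scaled change in WT cells was −0.79 (adjusted p = 0.0414).

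Of the 3 tested members, 1 was called lower in WT and 2 in ΔLEO1 cells on the ERCC scale, where 36.1% and 47.2% of all tested genes were called lower, and none was called higher. Higher calls made up 0.944% and 0.975% of the tested genes. With TMM on the genes, CDH2 was the 1 member called lower in each genotype, where 16.6% and 12.9% of tested genes were called lower, and CDH13 the 1 called higher, in ΔLEO1 cells, where 16.5% were. The response to serum was not shown to differ between genotypes for any member. The difference of the responses, ΔLEO1 less WT, was −0.29 (SE 0.62) for CDH2, −0.11 (SE 0.62) for CDH11 and 0.55 (SE 0.63) for CDH13 on the log2 scale, none of them called in edgeR, where 0.0831% of tested genes were called lower and 0.136% higher. With TMM on the genes it was −0.24 (SE 0.25), 0.02 (SE 0.20) and 0.65 (SE 0.33), also with none called, where 1.02% were called lower and 3.06% higher.

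**Figure D2:**
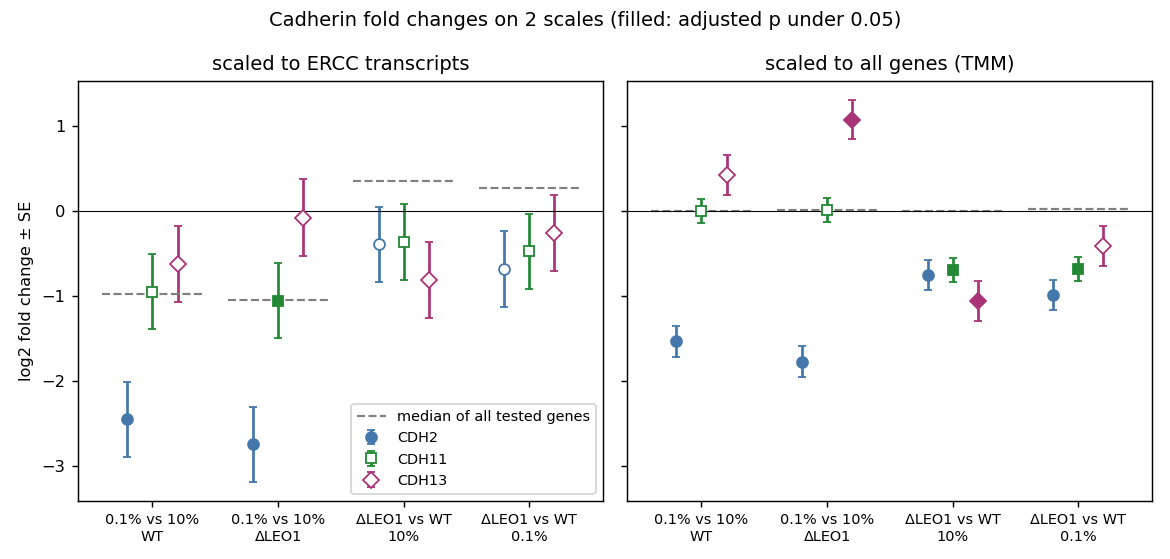
Log2 fold changes (vertical axis, ± SE) of CDH2, CDH11 and CDH13 in the serum comparison of each genotype and the genotype comparison in each serum, on the ERCC scale (left) and with TMM factors on the genes (right). Filled symbols have an adjusted p under 0.05, and dashed lines are the median over all 13236 tested genes. CDH2 lies below the dashed line in every comparison, and the genotype differences are filled only on the right, where that of CDH13 in 0.1% serum is unfilled.

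Since both scales rest on other RNAs, the members were also compared with each other within a library, where no scaling enters. This was chosen after the values were seen. In 10% serum the count of CDH2 was above that of CDH11, with ratios of 1.33, 1.28 and 1.84 in WT and 1.34, 1.29 and 1.60 in ΔLEO1 libraries. In 0.1% serum it was below, with ratios of 0.496, 0.477 and 0.580 in WT and 0.359, 0.382 and 0.497 in ΔLEO1 libraries. The ratio thus dropped 2.84-fold in WT and 3.43-fold in ΔLEO1 cells, with no overlap between sera. An exact two-sided permutation test gave p = 0.1 for each, the smallest that 3 libraries against 3 allow (0.24 adjusted over 12 ratio tests), so this design cannot pass 0.05. Between genotypes the CDH2 to CDH11 ratio overlapped in both sera (exact permutation p = 0.9 in 10% and 0.3 in 0.1% serum). The ratio of CDH13 to CDH11 was 2.05-fold higher in starved than in fed ΔLEO1 cells with no overlap (exact permutation p = 0.1) and 1.41-fold higher in WT cells with overlap (exact permutation p = 0.2).

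Levels of different genes were compared per kb of exon. CDH2 led in all 4 groups, with 116 ± 19.8, 42.7 ± 4.82, 69.2 ± 11.5 and 21.3 ± 4.07 CPM per kb in WT 10%, WT 0.1%, ΔLEO1 10% and ΔLEO1 0.1% serum (SD, n = 3). CDH11 followed with 29.1 ± 1.14, 30.9 ± 6.20, 18.1 ± 0.815 and 19.1 ± 0.599, and CDH13 with 11.8 ± 3.85, 16.8 ± 2.07, 5.68 ± 0.335 and 12.4 ± 2.07. CDH2 and CDH11 stood apart in every group except ΔLEO1 cells in 0.1% serum, where their ranges of 17.9 to 25.8 and 18.4 to 19.6 overlapped. Of the summed CPM per kb of the 6 genes, CDH2 held 73.6% ± 5.28 in fed and 47.4% ± 1.497 in starved WT cells, and 74.2% ± 2.14 and 40.2% ± 5.89 in ΔLEO1 cells. CDH13 went from 7.68% ± 2.98 to 18.6% ± 1.19 and from 6.15% ± 0.483 to 23.6% ± 4.82. The order of CDH2 and CDH11 in 0.1% serum depends on the length used. With the longest transcript in place of all exon bases, CDH11 held 45.3% and CDH2 37.0% in starved WT cells, and 47.2% and 30.8% in starved ΔLEO1 cells.

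**Figure D3:**
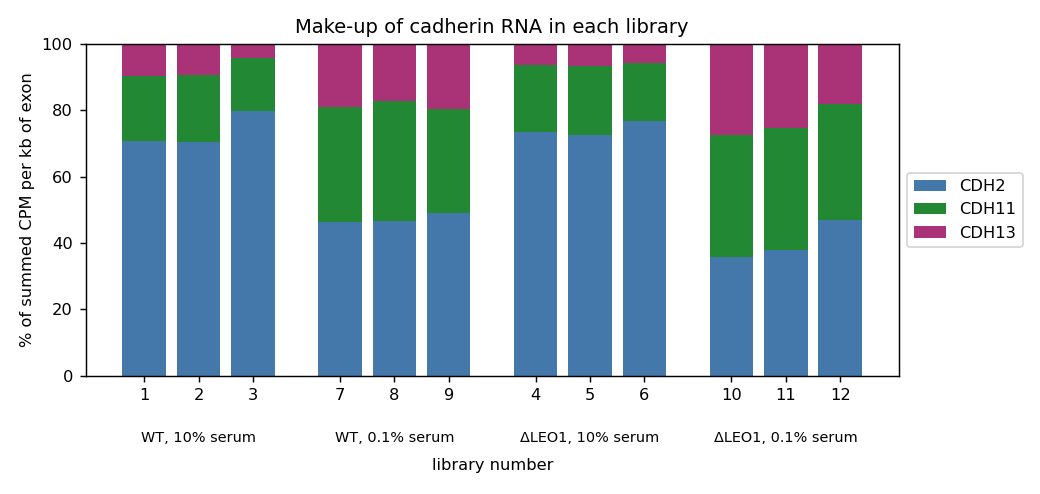
Share of CDH2, CDH11 and CDH13 in the summed CPM per kb of exon of the 6 cadherin genes (vertical axis, %) in each of 12 libraries, ordered by group. CDH4, CDH6 and CDH10 are too rare to be seen. CDH2 holds 70.4% to 79.7% in the fed libraries of both genotypes and 35.7% to 49.1% in the starved ones.

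Next, ΔLEO1 and WT cells were compared in the same serum. On the ERCC scale all 3 members had lower means in ΔLEO1 cells, but the libraries of the genotypes overlapped for each of them in both sera and none was called. Of all tested genes, 4.64% were called lower and 4.2% higher in 10% serum, and 3.59% and 3.85% in 0.1% serum. Those without overlap were 6.94% lower and 23.7% higher in 10% serum, and 4.83% lower and 4.64% higher in 0.1% serum. The log2 fold change of CDH2 was −0.39 (SE 0.44) in 10% and −0.68 (SE 0.44) in 0.1% serum, that of CDH11 −0.37 (SE 0.44) and −0.47 (SE 0.44), and that of CDH13 −0.81 (SE 0.45) and −0.26 (SE 0.45). The median over all genes was 0.35 in 10% and 0.27 in 0.1% serum, so the members lay below most genes.

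Relative to the other genes, the 3 cadherins were lower in ΔLEO1 cells. CDH2 had 536, 504 and 687 CPM in fed WT libraries and 315, 304 and 408 in fed ΔLEO1 libraries, and 230, 219 and 184 against 88.5, 100.2 and 128 after starvation. CDH11 had 404, 392.5 and 374 against 236, 236 and 255 CPM in 10% serum, and 464, 460 and 318 against 246.5, 262 and 257 in 0.1% serum. The corresponding values of CDH13 were 162, 151 and 82.6 against 60.6, 62.4 and 67.8, and 212, 184 and 166 against 153, 151 and 112. No ΔLEO1 library overlapped with a WT library in any of these 6 comparisons, where 29.6% of tested genes in 10% serum and 21.8% in 0.1% serum lay lower without overlap in CPM (29.8% and 19.7% higher). With TMM on the genes, CDH2 was called lower in both sera (log2 fold changes −0.76 and −0.99, adjusted p = 1.23e-04 and 3.86e-07), as was CDH11 (−0.69 and −0.68, adjusted p = 1.01e-05 and 2.20e-05). CDH13 was called lower in 10% serum (−1.06, adjusted p = 3.82e-05) and had −0.41 in 0.1% serum (adjusted p = 0.167). On this scale 21.8% of tested genes were called lower in 10% serum and 17.6% in 0.1% serum. Without libraries 3, 6, 9 and 12 the ERCC scale gave 1 call in 10% serum (CDH13, −1.11, adjusted p = 0.0197) and 2 in 0.1% serum (CDH2, −1.65, adjusted p = 1.64e-04, and CDH11, −1.25, adjusted p = 0.00641), with the median of all genes at 0.26 and −0.42. Library 12 alone decided the call of CDH2 in 0.1% serum, which was −1.43 without it (adjusted p = 0.010 in edgeR).

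**Figure D4:**
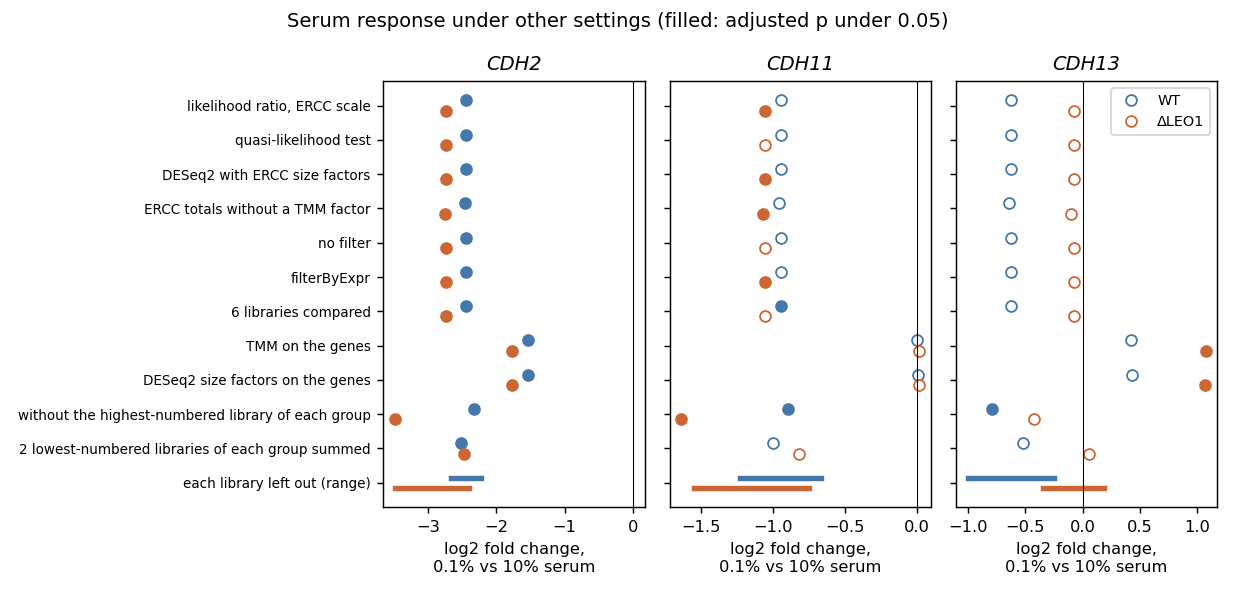
Log2 fold change of CDH2, CDH11 and CDH13 between 0.1% and 10% serum (horizontal axis) under each setting (rows), in WT (blue) and ΔLEO1 cells (orange). Filled symbols have an adjusted p under 0.05, and bars span the 12 fits without 1 library. CDH2 is filled and left of 0 in every row, while CDH11 moves to 0 and CDH13 to the right when the scale is set on the genes.

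CDH4, CDH6 and CDH10 were near the limit of detection. With 3 counts as the floor of a library, 0.0662 to 0.114 CPM, none of them passed the filter. CDH4 (ENSG00000179242, chr20:61252426-61940617) had 7, 7 and 0 counts in fed WT libraries, 1, 0 and 0 in fed ΔLEO1 libraries and 0 in all 6 starved libraries. On the ERCC scale its mean in fed WT cells was at least 2.98-fold higher than in starved WT cells, taking 3 counts in each starved library, and in CPM at least 1.26-fold higher. Both means rest on 2 libraries with 7 counts each. CDH6 (ENSG00000113361, chr5:31193750-31329146) had 2, 0 and 4 counts in fed and 1, 0 and 1 in starved ΔLEO1 libraries, and CDH10 (ENSG00000040731, chr5:24487100-24644978) had 1, 2 and 2 in fed and 2, 2 and 1 in starved ones. Neither had a count in any of the 6 WT libraries. When all genes with a count were tested, CDH4 passed in the WT serum comparison (adjusted p = 0.00129 in edgeR) on its 14 counts, and the genotype comparisons gave adjusted p = 0.109 and 0.537 for CDH6 and 0.159 and 0.236 for CDH10. At so few counts no fold change is given for CDH6 and CDH10, and a difference was not detectable at this depth.

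CDH6 and CDH10 lie on chromosome 5 with 3 further type II genes, in the order CDH18, CDH12, CDH10, CDH9 and CDH6, and CDH9 and CDH18 had more counts than the members of this row. CDH9 (chr5:26880600-27121150), a cadherin of synapses, had no count in the 6 WT libraries, 43, 75 and 81 in fed ΔLEO1 libraries and 33, 31 and 61 in starved ones. On the ERCC scale it was at least 23.6-fold higher in ΔLEO1 than in WT cells in 10% serum and at least 16.3-fold higher in 0.1% serum, against 3 counts in each WT library. CDH18 (chr5:19472951-20575873), also known from brain, went the other way. It had 83, 80 and 35 counts in fed and 41, 26 and 56 in starved WT libraries, and 4, 8 and 8 and then 3, 2 and 2 in ΔLEO1 libraries. On the ERCC scale its mean was 188 ± 115 in fed WT and 18.6 ± 2.15 in fed ΔLEO1 cells and 59.7 ± 2.66 in starved WT and 3.84 ± 1.76 in starved ΔLEO1 cells (SD, n = 3), the last at or under 3 counts in every library. The groups did not overlap for either gene in either serum on the ERCC scale. Of all tested genes, 23.7% lay higher and 6.94% lower in ΔLEO1 cells without overlap in 10% serum, and 4.64% and 4.83% in 0.1% serum. CDH9 reached 1 CPM in 4 ΔLEO1 and 0 WT libraries and CDH18 in 4 WT and 0 ΔLEO1 libraries, so each entered the test through the genotype where it was high and the values are given as a description. CDH12, between CDH18 and CDH10, had 0 or 1 count in every library. All ΔLEO1 libraries share 1 clone, so a difference of that clone and the loss of LEO1 cannot be told apart.

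**Figure D5:**
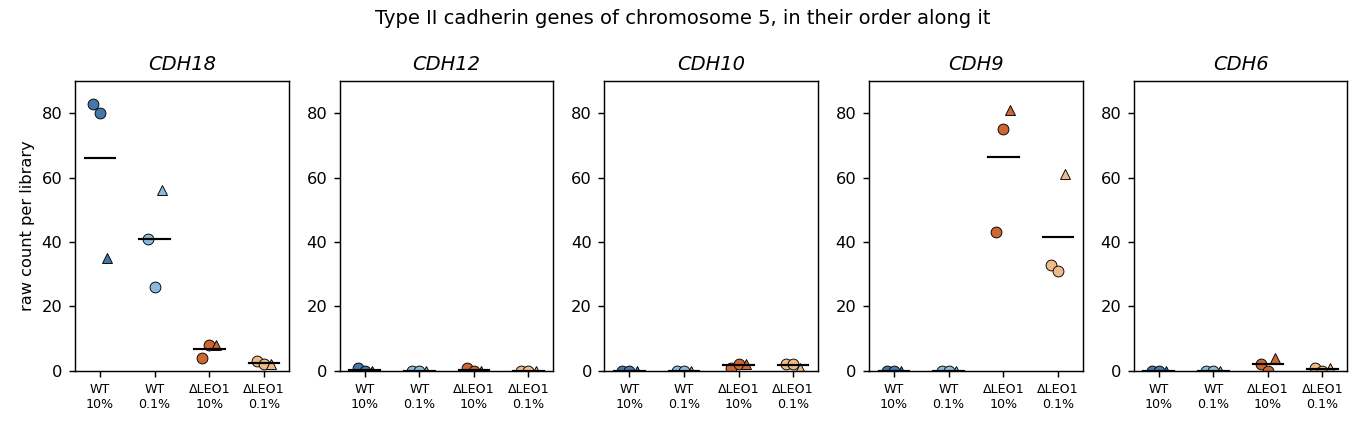
Raw counts per library (vertical axis) of the 5 type II cadherin genes of chromosome 5 in their order along it, in WT and ΔLEO1 cells in 10% and 0.1% serum. Each symbol is a library, triangles are the highest-numbered library of a group and lines are means. CDH18 has 26 to 83 counts in WT and 2 to 8 in ΔLEO1 libraries, CDH9 0 in WT and 31 to 81 in ΔLEO1 libraries, and the other 3 genes stay at 4 or fewer.

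Tested genes within 5 Mb of each member were set beside it. In 10% serum the median genotype difference of the neighbours was 0.15 above the median of all genes around CDH2 (23 neighbours), 0.04 around CDH4 (60), 0.11 around CDH6 (23), 0.04 around CDH11 (71) and 0.10 around CDH13 (58) on the log2 scale. These are descriptions of the neighbours, with no test. Around CDH10 only 4 genes were tested, CDH9 and CDH18 among them, which entered the test through the genotype where they were high. The median of the 4 lay 0.79 above that of all genes in 10% serum and 0.47 in 0.1% serum, with an SD between libraries of a group of 0.22. It therefore repeats in part the values of CDH9 and CDH18 given above.

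The other classical and type II cadherins were mostly absent. Of the 3 other type I genes only CDH3 (P-cadherin, of epithelia) was tested. It had 21, 17 and 16 counts in fed WT and 99, 90 and 89 in fed ΔLEO1 libraries, then 13, 7 and 11 and 49, 53 and 44 after starvation. The ΔLEO1 libraries lay above the WT libraries of the same serum without overlap. CDH3 passed 1 CPM in all 6 ΔLEO1 libraries and in 0 WT libraries, so it entered the test through the genotype where it was high, and no p is given between genotypes. It fell with starvation in both genotypes (−1.62 in WT and −1.85 in ΔLEO1 cells, adjusted p = 0.0296 and 0.00778), a fall that did not pass in WT cells with TMM on the genes (adjusted p = 0.211). E-cadherin (CDH1) had 8 to 13 counts in fed WT and 38 to 63 in fed ΔLEO1 libraries and stayed under the filter. CDH15 (M-cadherin, of muscle) went the other way, with 10, 12 and 22 counts in fed WT and 1, 3 and 1 in fed ΔLEO1 libraries, then 7, 6 and 6 and 2, 0 and 0 after starvation. The summed CPM of 8 epithelial markers, CDH1 among them and most of it KRT18, was 318 to 462 in fed and 165 to 181 in starved WT libraries, and 841 to 1141 and 510 to 585 in ΔLEO1 libraries. KRT8 went the other way, with a mean of 57.1 CPM in fed WT and 24.5 in fed ΔLEO1 libraries, and ESRP1 was at 0. The part of these markers in the CDH3 counts was not tested. Of the 10 other type II genes 3 were tested, CDH9, CDH18 and CDH24. CDH24 had 144 to 328 counts in all libraries, and its values were between −0.92 and 0.63 in the 4 comparisons with none passing the test.

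Regarding catenins, the partners of the cadherin tail, 7 of 10 genes were tested, and 4 were called lower in starved WT and 4 in starved ΔLEO1 cells, against 36.1% and 47.2% of all tested genes. The median of the 7 was −1.10 and −1.06, close to the −0.97 and −1.05 of all genes. In WT cells these were CTNNAL1 (−1.87, adjusted p = 0.00121), a relative of α-catenin, CTNNA1 (−1.34, adjusted p = 0.0161), which links cadherins to actin, CTNND1 (−1.16, adjusted p = 0.0446), the p120-catenin, and CTNNB1 (−1.10, adjusted p = 0.0430), the β-catenin. In ΔLEO1 cells they were CTNNAL1 (−1.31), CTNNA1 (−1.25), JUP (−1.06) and CTNNB1 (−1.06), with adjusted p = 0.0216, 0.0222, 0.0423 and 0.0416. With TMM on the genes 2 were called lower in starved WT cells, CTNNAL1 and CTNNA1, while in starved ΔLEO1 cells none was called lower and 1 higher, and the quasi-likelihood test called 2 lower in each genotype. Of all tested genes, TMM gave 16.6% lower in WT cells, and 12.9% lower and 16.5% higher in ΔLEO1 cells. The quasi-likelihood test called 3578 of the 13236 tested genes lower in WT and 4820 in ΔLEO1 cells. Of the 12 fits without 1 library, CTNND1 was called in 3 and CTNNB1 in 4 in WT cells, and JUP in 5 and CTNNB1 in 6 in ΔLEO1 cells. Between genotypes 4.2% of tested genes were called higher and 4.64% lower in 10% serum, and 3.85% and 3.59% in 0.1% serum. Among the 7 tested catenins 1 was called, higher in both sera. JUP, the plakoglobin of desmosomes and adherens junctions, was higher in ΔLEO1 cells by 2.37 (SE 0.44, adjusted p = 1.35e-05) in 10% and by 2.02 (SE 0.44, adjusted p = 3.35e-04) in 0.1% serum on the log2 scale.

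Among 15 genes of adherens junctions and actin linkers, 13 were tested. In starved WT cells 11 were called lower, with a median of −1.32, and in starved ΔLEO1 cells 7, with a median of −1.01, beside medians of −0.97 and −1.05 and lower calls of 36.1% and 47.2% over all tested genes. The lowest in WT cells were AJUBA (−1.78), CADM1 (−1.70), PTPRM (−1.49) and NECTIN2 (−1.45), and with TMM on the genes 5 of the 13 were called lower in WT cells, and 3 lower and 1 higher in ΔLEO1 cells. On that scale 16.6% of tested genes were called lower in WT cells, and 12.9% lower and 16.5% higher in ΔLEO1 cells. When the 2 libraries with the lowest numbers in a group were counted as 1 sample, 0 of the 13 were called in either genotype. PLEKHA7, which binds p120-catenin, had 7 to 10 counts in fed and 3 to 21 in starved WT libraries, and 135 to 246 and 49 to 98 in ΔLEO1 libraries. It passed 1 CPM in all 6 ΔLEO1 and in 0 WT libraries, so no p is given between genotypes. NECTIN1, an adhesion molecule beside cadherins, was lower in ΔLEO1 cells in 10% serum (−1.88, SE 0.50, adjusted p = 0.00413), a call lost in 3 of 12 fits without 1 library.

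Of 17 genes that mature or cleave cadherins 15 were tested, and 6 were called lower in starved WT and 8 in starved ΔLEO1 cells, close to the 36.1% and 47.2% of all tested genes. TMM on the genes gave 3 lower and 2 higher calls in each genotype. Over all tested genes it gave 16.6% lower and 16% higher in WT, and 12.9% and 16.5% in ΔLEO1 cells. TMTC1, which adds mannose to cadherins, fell most in WT cells (−2.24, SE 0.45, adjusted p = 6.63e-05) and was higher in starved ΔLEO1 than in starved WT cells (2.05, SE 0.45, adjusted p = 3.29e-04). Its response to serum differed between genotypes by 1.198 with TMM on the genes (adjusted p = 7.18e-04), while the difference of 1.17 on the ERCC scale was not called. Of 12 transcription factors known to act on cadherin genes 10 were tested and none was called in starved WT cells. TWIST1 (−1.58, adjusted p = 0.00833) and TCF4 (−1.40, adjusted p = 0.0135) were called lower in starved ΔLEO1 cells. Lower calls made up 36.1% and 47.2% of all tested genes, with medians of −0.97 and −1.05 (−0.61 and −0.56 for the 10 factors). TWIST1 and TCF4 were each called in 9 of 12 fits without 1 library. Neither was called once the 2 lower-numbered libraries of a group were counted as 1 sample, where 203 of all tested genes were called lower. KLF4 was lower in fed ΔLEO1 cells (−1.41, adjusted p = 0.0317), a call lost in 6 of 12 fits without 1 library and in DESeq2 (adjusted p = 0.325), and in 0.1% serum 0 factors were called between genotypes on the ERCC scale. The counts differed with TMM on the genes, where 2 factors were called higher in starved WT cells, 2 lower and 5 higher in starved ΔLEO1 cells, and between genotypes 4 lower and 1 higher in 10% and 5 lower and 1 higher in 0.1% serum. Of all tested genes, 16% were called higher in starved WT cells, and 12.9% lower and 16.5% higher in starved ΔLEO1 cells on that scale. Between genotypes 21.8% were called lower and 17.7% higher in 10% serum, and 17.6% and 15.4% in 0.1% serum. Without libraries 3, 6, 9 and 12 the ERCC scale gave 5 lower between genotypes in 0.1% serum, and 7 lower in starved WT and 10 in starved ΔLEO1 cells. The tested genes called lower in this setting were 2195 between genotypes in 0.1% serum, 9506 in starved WT and 12241 in starved ΔLEO1 cells.

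In the wider cadherin superfamily 16 of 40 genes were tested, 9 were called lower in starved WT cells, and 8 lower and 1 higher in starved ΔLEO1 cells, against 36.1% lower and then 47.2% lower and 0.975% higher over all tested genes. Between genotypes 3 were called higher and 2 lower in fed cells, and 4 higher and 1 lower in starved ones, against 4.2% and 4.64% and then 3.85% and 3.59% of all. Under TMM on the genes 6 were called lower and 4 higher in starved WT and 4 lower and 4 higher in starved ΔLEO1 cells, and between genotypes 6 lower and 5 higher in 10% and 5 lower and 4 higher in 0.1% serum. Over all tested genes the lower and higher calls with TMM were 16.6% and 16% in starved WT and 12.9% and 16.5% in starved ΔLEO1 cells. Between genotypes they were 21.8% and 17.7% in 10% serum, and 17.6% and 15.4% in 0.1% serum. The protocadherins PCDH9 and PCDH7 and the giant cadherin FAT3 had 0 to 8 counts in WT libraries. PCDH9 had a mean of 13.02 ± 0.929 CPM in fed and 10.1 ± 2.10 in starved ΔLEO1 cells, PCDH7 3.91 ± 0.460 and 4.75 ± 0.747, and FAT3 7.87 ± 0.393 and 4.26 ± 1.17 (SD, n = 3). All 3 passed 1 CPM in the 6 ΔLEO1 and in 0 WT libraries and so entered the test through the genotype where they were high, and no p is given for them. They are the 3 higher calls in fed cells and 3 of the 4 in starved ones, and are among the higher calls with TMM. CLSTN2, 1 of the 2 lower calls in fed cells, entered through fed WT cells. The counts between genotypes are therefore a description and cannot be weighed against the shares of all genes. CELSR2, a cadherin of planar polarity, fell with starvation in WT (−2.58, adjusted p = 2.30e-05) and ΔLEO1 cells (−2.20, adjusted p = 5.39e-04), also with TMM on the genes. CELSR1, its relative, was lower in starved ΔLEO1 than in starved WT cells (−3.13, SE 0.48, adjusted p = 1.17e-07).

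The genes most like the members in log2 CPM over the 12 libraries were SLC17A5 (Pearson r = 0.98), SEC24D (0.98) and DUS2 (0.97) for CDH2, INTS6 (0.99), ANKH (0.98) and ABR (0.97) for CDH11, and SLC66A3 (0.97), EIF4E3 (0.96) and FAM210B (0.96) for CDH13. These values describe 12 points that share libraries and fall into 4 groups. SLC17A5, a lysosomal transporter, had 49.0 and 30.9 CPM in fed and starved WT cells and 37.2 and 23.2 in ΔLEO1 cells, the order seen in CDH2. INTS6, of the Integrator complex, had 40.7 and 45.7 CPM in WT and 21.7 and 24.2 in ΔLEO1 cells, where serum made little difference as for CDH11.

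Reads could be shared with overlapping genes, since the strand setting of the counting is not given in the sources used here. An antisense gene, AC110015.1, shares 136 exon bases with CDH2 and had 0 to 8 counts. AC010533.1 shares 254 with CDH11 on the same strand (0 to 5 counts), and AC009119.1 shares 141 with CDH13 on the opposite strand (1 to 7 counts). Beside the counts of the members these are small. Of all stretches of 58 bases, the read length, 8.61% in CDH6, 1.48% in CDH11 and 0.0603% in CDH13 occur in another gene, and none in CDH2, CDH4 or CDH10.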

How the data were processed

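The authors deposited raw counts per gene and per ERCC transcript for 12 libraries of poly(A) RNA, made with a stranded kit and sequenced in paired reads of 58 bases. Per the submitters' processing notes and the paper, reads were aligned with STAR to GRCh38 with the ERCC sequences and counted in exons with featureCounts 1.5.1. The annotation release and strand setting are not given in the sources used here.

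Genes over 1 CPM in 3 or more libraries (13236) were fitted in R 4.3.3 with edgeR 4.0.16, all 12 libraries in 1 negative binomial fit with 4 groups. The effective library size was the ERCC total times the TMM factor of the ERCC transcripts (0.978 to 1.02). Two-sided likelihood ratio tests were adjusted over all tested genes, and genes with an adjusted p under 0.05 were called. ERCC shares had 95% Wilson intervals no wider than 0.0120 points, which cover counting error only. Gene positions and exon lengths came from GENCODE 29, where 58453 identifiers were found, and promoters from RefSeq.

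The members and the gene lists were chosen with earlier results of these data known. The text names all 6 members, LEO1, at most 4 called genes per list and comparison with the largest log2 fold change, the 3 genes most like each tested member and genes that overlap a member. The cadherins CDH1, CDH12, CDH15 and CDH24 were named after their values were seen. Alternatives were the quasi-likelihood test, DESeq2 1.42.0, other scalings and filters, 6 libraries per fit, a threshold of 0.01, libraries left out or summed, and a 2 Mb window. Ratios of members and the longest transcript were added after the data were seen. The procedure was run on simulated data with less spread between libraries than the members had and with larger changes than most given here. The simulation held no shift of most genes and no library that stood apart. It therefore does not show how the procedure performs on such data. Histone methylation data of the study were not analysed here.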

Additional observations from a re-analysis of the deposited data

Results flagged for a closer look

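CLSTN2, a calsyntenin of the wider cadherin superfamily, was on the ERCC scale the 1 listed gene called in a test of the difference between the serum responses. Of all tested genes, 0.0831% were called lower and 0.136% higher in it. Further listed genes were called in this test with TMM on the genes, TMTC1 among them. The difference, ΔLEO1 less WT, was 5.56 on the log2 scale (SE 0.87). Its ERCC-scaled count was 520 ± 363 in fed and 40.8 ± 11.3 in starved WT cells, and 11.8 ± 7.93 and 44.1 ± 51.2 in ΔLEO1 cells (SD, n = 3). The difference was 4.05 to 6.11 in the 12 fits without 1 library and 5.23 with TMM on the genes. The call was lost in DESeq2 with ERCC size factors (5.60, adjusted p = 0.0575), and the difference was 3.87 without libraries 3, 6, 9 and 12. CLSTN2 was over 1 CPM in 3 fed and 1 starved WT library and in 0 fed and 1 starved ΔLEO1 library. Without fed WT cells it would not have met the filter of 3 libraries. It thus entered the test through the group where it was high, so the difference is given as a description and no p is given where it was called. Within ΔLEO1 cells the rise with starvation (1.89, adjusted p = 0.0224) did not hold without libraries 3, 6, 9 and 12 (−0.06, adjusted p = 0.929) or in DESeq2 (adjusted p = 0.0961).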

How the results depend on the processing

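CDH2 was called lower in 0.1% serum in both genotypes under every alternative run. The counts of called members moved. In the WT serum comparison 1 member was called lower, against 2 without a filter (CDH4 joined) and in the fit to 6 libraries, 3 without libraries 3, 6, 9 and 12, and 1 to 2 over the fits without 1 library. In the ΔLEO1 serum comparison 2 were called lower, against 1 in the quasi-likelihood test, with TMM or DESeq2 size factors on the genes, without a filter, in the fit to 6 libraries, with the 2 lowest-numbered libraries summed and at a threshold of 0.01, and 1 to 2 without 1 library. With TMM or DESeq2 size factors on the genes 1 was called higher there. Between genotypes no member was called, against 3 lower in 10% and 2 lower in 0.1% serum with either scaling on the genes, and 1 and 2 without libraries 3, 6, 9 and 12, while the fits without 1 library gave 0 to 1 in 0.1% serum. Without libraries 3, 6, 9 and 12 the tested genes called lower between genotypes were 958 in 10% and 2195 in 0.1% serum. Those called lower in the WT serum comparison were then 9506.

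Values with TMM and DESeq2 size factors on the genes turned sign for CDH11 in ΔLEO1 serum (0.015 and 0.013), its interaction (0.016 and 0.010), CDH13 in WT serum (0.42 and 0.43) and ΔLEO1 serum (1.07 in both), and CDH11 in WT serum with DESeq2 size factors (0.0031). These scalings set the median of all genes near 0. With the 2 lowest-numbered libraries summed the interactions of CDH2 and CDH11 (0.048 and 0.18) and CDH13 in ΔLEO1 serum (0.055) turned, and the cause was not tested. Without 1 library the interaction ran from −1.04 to 0.049 for CDH2 and from −0.61 to 0.195 for CDH11, CDH13 in ΔLEO1 serum from −0.35 to 0.19 and CDH13 between genotypes in 0.1% serum from −0.53 to 0.0059. In CPM the mean log2 differences between sera in WT and ΔLEO1 cells were −1.44 and −1.70 for CDH2, 0.065 and 0.076 for CDH11, and 0.56 and 1.11 for CDH13. A 2 Mb window around the members left CDH10 with no tested neighbour and moved the neighbours' median relative to all genes to 0.11 (WT serum), −0.036 (ΔLEO1 serum), 0.28 (genotype, 10%) and −0.15 (interaction) for CDH2, to −0.016 (genotype, 0.1%) and −0.11 (interaction) for CDH6, to 0.022 (ΔLEO1 serum) for CDH11, and to −0.10 and −0.040 (WT and ΔLEO1 serum) for CDH13. Of the alternative values of single members, 290 kept their direction and side of the threshold, 12 lost a call (all of CDH11 in ΔLEO1 serum), 20 gained one and 20 changed sign.

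No paired analysis was possible because the libraries carry running numbers from 1 to 12 and no number is shared between groups. A block for the place of a library within its group would assume a pairing that the labels do not give and was not fitted. The depth limits what can be said of CDH4, CDH6 and CDH10, and the spread of the ERCC share within groups limits small differences of the other members.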
